A study of Mus musculus with 2 samples.

Results

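Cluster 1 is one of 20 clusters of aortic leukocytes and holds 719 of the 7613 cells in the deposited cell table. Its cells were taken as all those that the authors' clustering numbered 1, a cluster that they named B cells together with clusters 2, 4 and 12. It contained 371 of 4871 cells in the library from nt-LNA-treated mice and 348 of 2742 cells in the library from saline-treated mice. All mice were Apoe-/- animals, a strain that lacks apolipoprotein E and forms atherosclerotic plaques, and all ate a western diet for 4 weeks. They received nt-LNA at 30 mg/kg or saline every week of that time. The aortic arch and thoracic aorta were dissociated, live CD45+/CD3- cells were sorted, and their RNA was read from the 3' end on the 10x Chromium system. There was 1 library per treatment, and the sources used here state neither the number of mice in each nor their age or sex. No difference between treatments therefore has a replicate check, and no p-value is given. The expression table sums the unique molecular identifiers (UMIs, 1 per captured RNA molecule) of both libraries in each cluster, so the treatments could be compared by numbers of cells only.

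Follicular B cells are the recirculating B-2 cells of spleen and lymph node. They carry IgM and IgD together, the low-affinity IgE receptor CD23 (Fcer2a) and the complement receptor CD21 (Cr2), and wait in follicles for antigen and T cell help. B-1 cells are a separate, largely innate lineage of the serous cavities that secretes natural IgM, and plasma cells are the antibody-secreting end stage. In mouse atherosclerosis these subsets have been assigned different roles.

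The label follicular-like came with 5 markers, each given as CPM, its UMIs scaled to a common total (1e6) for each cluster. Cd79a, a signalling chain of the B cell receptor, was at 3376 CPM in cluster 1 (exact Poisson 95% interval 3321 to 3431), against 5662, 2248 and 2309 CPM in clusters 2, 4 and 12. In the other 16 clusters it lay between 84.9 and 674 CPM. Ighd, the IgD heavy chain, was at 791 CPM in cluster 1 (765 to 818), against 770, 140 and 296 CPM in clusters 2, 4 and 12. Fcer2a was at 319 CPM in cluster 1 (302 to 336), against 337, 40.1 and 121 CPM in clusters 2, 4 and 12. Cr2 was at 155 CPM in cluster 1 (143 to 167), against 178, 14.9 and 56.5 CPM in clusters 2, 4 and 12. Vpreb3, which binds newly made immunoglobulin chains in developing B cells, was at 299 CPM in cluster 1 (283 to 316), against 175, 21.2 and 95.9 CPM in clusters 2, 4 and 12. All 5 markers were thus present, and cluster 1 ranked first of the 20 clusters for Ighd and Vpreb3 and second, behind cluster 2, for the other 3. These genes were chosen together with the label, with earlier results of these data known, so they cannot test it. Cluster 2 carried 4 of them at a similar or higher level. Expression itself defined the clusters, so these and all later contrasts between clusters describe the cluster and are not tests.

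**Figure D1:**
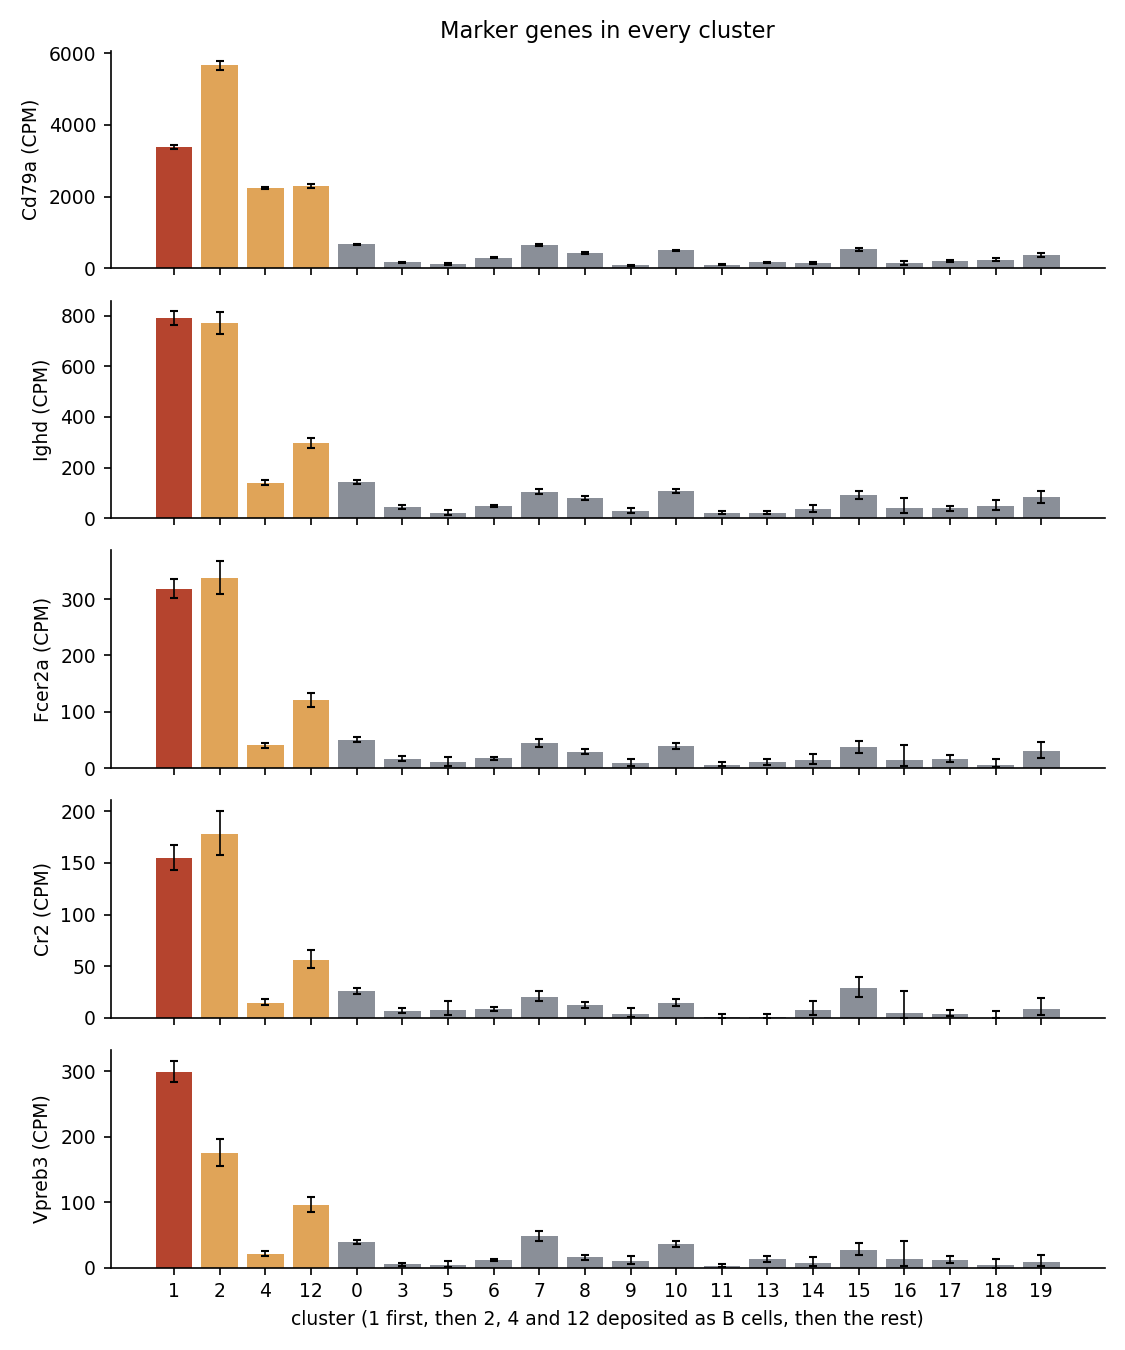
CPM of the 5 markers in each of the 20 clusters, with cluster 1 in red, the other clusters deposited as B cells in orange and the rest in grey; bars are pooled counts of both libraries and whiskers exact Poisson 95% intervals. Clusters 1 and 2 stand above all others for Ighd, Fcer2a, Cr2 and Vpreb3, and cluster 1 is above cluster 2 for Vpreb3.

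The cells showed few signs of another lineage. Of 15 T cell markers, 14 were over 2-fold lower in cluster 1 than in the mean of the other clusters (as were 29.1% of all genes with as many counts), and their summed level was 673 CPM in cluster 1 against 809 to 22062 CPM elsewhere; Cd3e, a chain of the T cell receptor complex, was at 13.8 CPM against a mean of 287 CPM. The 13 macrophage and monocyte markers summed to 192 CPM in cluster 1, against 135 to 37502 CPM in the other clusters. The 10 neutrophil markers summed to 112 CPM, against 63.6 to 104758 CPM. The 10 NK cell markers summed to 40.4 CPM and the 12 dendritic cell markers to 152 CPM, in each case less than in any other cluster. Of 12 vessel wall markers, 7 had no count in cluster 1, and the list summed to 93.7 CPM in cluster 1 against 158, 45.1 and 84.8 CPM in clusters 2, 4 and 12 and 23.6 to 606 CPM over all other clusters. The neighbour that did carry T lineage RNA was cluster 12, in which the T cell markers summed to 7705 CPM, and its part in the differences between clusters 1 and 12 was not tested.

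The library from nt-LNA-treated mice had the smaller share of these cells. Cluster 1 made up 7.62% of cells in the nt-LNA library (Clopper-Pearson 95% interval 6.89 to 8.40%), against 12.7% in the saline library (11.468 to 13.996%), a ratio of 0.600 (exact interval 0.517 to 0.697). Among the cells deposited as B cells it made up 24.4% of 1521 cells in the nt-LNA library (22.3 to 26.6%) and 47.3% of 736 cells in the saline library (43.6 to 51.0%), a ratio of 0.516 (0.444 to 0.599). The nt-LNA library held 0.729 cells of cluster 1 for each cell of cluster 2, against 2.23 in the saline library. For each cell of cluster 4 it held 0.819 cells of cluster 1, against 2.05 in the saline library, and for each cell of cluster 12 it held 1.97, against 5.61. With all 3 other B cells clusters left out of the total, the share was 9.97% in the nt-LNA library and 14.8% in the saline library, a ratio of 0.674 (0.581 to 0.783). The ratio stayed below 1 with every total tried. The intervals cover the counting of cells only, and differences between 2 libraries from mice, dissociation or sorting cannot be told apart from treatment. The libraries shared 2 cell barcodes, and the nt-LNA cells with those barcodes both lay in cluster 1. Without the cells of these barcodes, the shares were 7.58% in the nt-LNA library and 12.7% in the saline library, a ratio of 0.597 (0.514 to 0.693).

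**Figure D2:**
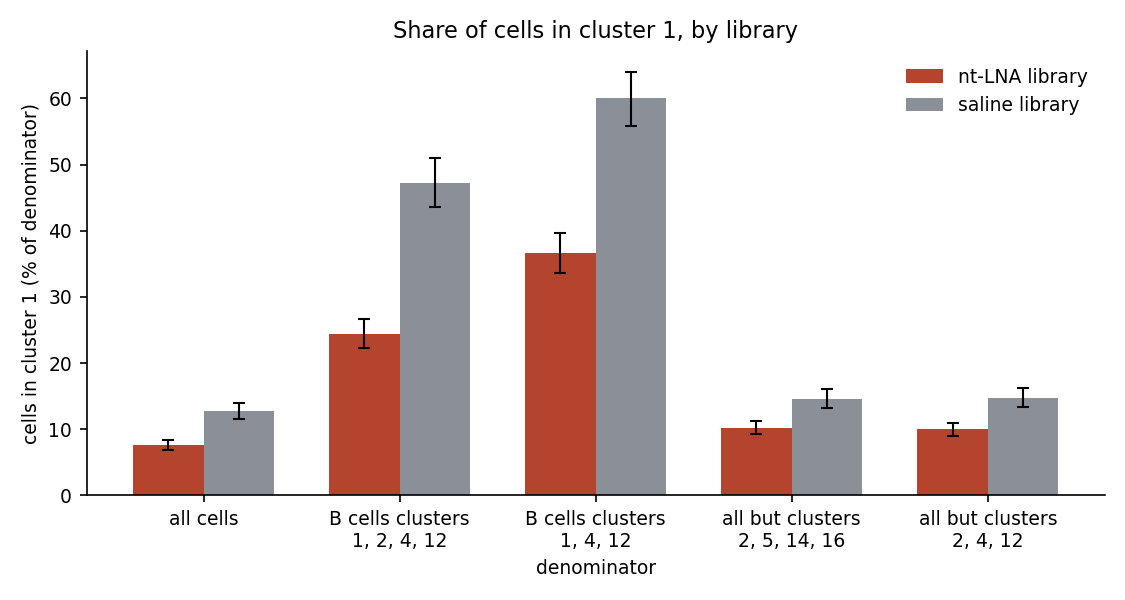
Cells of cluster 1 as a percent of 5 different totals in the nt-LNA library (red) and the saline library (grey); bars are single libraries and whiskers exact binomial 95% intervals. The nt-LNA bar is the lower of each pair, from 7.62% against 12.7% of all cells to 24.4% against 47.3% of the cells deposited as B cells.

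Cluster 1 contributed 4260058 UMIs, a mean of 5925 per cell, against 2296, 11201 and 11884 per cell in clusters 2, 4 and 12. Mitochondrial transcripts took 3.79% of its UMIs, against 10.1% in cluster 2, 3.53% in cluster 4 and 4.15% in cluster 12. Ribosomal protein genes took 33.9% in cluster 1, against 11.0, 36.6 and 28.1% in those clusters. Cluster 2 therefore stood apart in depth and in the shares of mitochondrial and ribosomal protein UMIs. The part of depth and of these shares in its differences from cluster 1 was not tested. Of the cells pooled in cluster 1, 48.4% came from the saline library, against 23.5% in cluster 2, 27.3% in cluster 4 and 24.8% in cluster 12, so a treatment effect within B cells and a difference between these clusters cannot be told apart in the pooled counts.

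Across the transcriptome cluster 1 was close to the other B cells clusters. Of 12780 genes with at least 50 UMIs over the 20 clusters, 334 (2.61%) were over 2-fold above the mean of all other clusters and 3799 (29.7%) were over 2-fold lower, on the scale log2(CPM + 0.5). Against the mean of clusters 2, 4 and 12 only 58 of 9503 genes (0.61%) were over 2-fold higher and 869 (9.14%) over 2-fold lower. The median gene had a log2 ratio of -0.47 against the mean of all others and of -0.18 against the 3 B cells clusters. Of the genes past 2-fold against all others, 8.08% were higher with the mean of the other clusters and 23.2% with their median; against the B cells clusters, 6.26% were higher with their mean, 16.9% with their summed counts and 20.7% with cluster 2 left out. Spearman's rho with cluster 1 across genes, which are not independent replicates, was 0.940 for cluster 2, 0.955 for cluster 4 and 0.950 for cluster 12, and as low as 0.777 elsewhere.

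The 20 genes with the highest ratio of cluster 1 over all others included several of mature B-2 cells. The BAFF receptor Tnfrsf13c, which delivers the survival signal of mature B cells, was at 189 CPM in cluster 1, against 141, 76.7 and 84.8 CPM in clusters 2, 4 and 12. Ccr6, a chemokine receptor, was at 84.3 CPM against 67.5, 12.3 and 33.3 CPM, and Fcrl1, an Fc receptor-like protein of mature B cells, at 108 CPM against 111, 17.5 and 39.7 CPM. Rasgrp3, an activator of Ras downstream of the antigen receptor, was at 78.4 CPM in cluster 1, against 45.2, 14.8 and 26.9 CPM. For 16 of the leading 20 genes the highest other cluster was cluster 2, so clusters 1 and 2 shared most of what set cluster 1 apart from the rest. Chchd10, a mitochondrial intermembrane protein, did not follow that order: it was at 187 CPM in cluster 1 (174 to 200), against 29.5, 42.0 and 63.3 CPM in clusters 2, 4 and 12. The ratio to cluster 2 was 6.34 for Chchd10 (exact interval 4.69 to 8.76) and 1.71 for Vpreb3 (1.498 to 1.96). Cluster 1 was the highest of all 20 clusters for 151 genes (1.18%), of which 124 had at least 50 UMIs in cluster 1. Of these 124, only 5 were more than 2-fold above the next cluster. They were chosen for mention after their values were seen: Mcpt2, Chchd10, Ddx25, Pold4 and Pxk. Pold4, the small subunit of DNA polymerase delta, was at 401 CPM in cluster 1 and at 199.6 CPM in the next cluster, number 12.

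The promoters of 4 of these genes are shown as examples. Vpreb3 and Chchd10 were highest in cluster 1, while Cd79a and Cr2 are B cell genes shared with cluster 2. Other genes highest in cluster 1, such as Ell3 and Tnfrsf13c, are not shown. The promoter windows are the 250 bases before the transcription start in RefSeq (GRCm38.p6), 5' to 3' on the gene's strand. Of the leading 20 genes 17 had an entry, and of the 5 markers 4. Capitals in Vpreb3 (chr10:75948050-75948299, plus strand) and Chchd10 (chr10:75932880-75933129, plus strand) mark the octamer ATGCAAAT, read on either strand, the recognition sequence of the OCT1 and OCT2 factors. Capitals in Cd79a (chr7:24897247-24897496, plus strand) and Cr2 (chr1:195176720-195176969, minus strand) mark CAGGTG, an E-box that E2A can bind, and in Cd79a also GAGGAA, a core recognised by PU.1, each on either strand.
Vpreb3: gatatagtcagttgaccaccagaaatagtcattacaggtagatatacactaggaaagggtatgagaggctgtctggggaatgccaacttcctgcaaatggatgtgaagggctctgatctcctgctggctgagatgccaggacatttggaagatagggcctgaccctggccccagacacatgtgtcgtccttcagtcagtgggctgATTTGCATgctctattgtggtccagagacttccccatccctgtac
Chchd10: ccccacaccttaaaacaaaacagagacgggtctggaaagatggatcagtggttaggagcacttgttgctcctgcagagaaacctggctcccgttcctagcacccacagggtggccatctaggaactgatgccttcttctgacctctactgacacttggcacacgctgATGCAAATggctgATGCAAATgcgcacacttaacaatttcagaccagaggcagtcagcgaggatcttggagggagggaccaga
Cd79a: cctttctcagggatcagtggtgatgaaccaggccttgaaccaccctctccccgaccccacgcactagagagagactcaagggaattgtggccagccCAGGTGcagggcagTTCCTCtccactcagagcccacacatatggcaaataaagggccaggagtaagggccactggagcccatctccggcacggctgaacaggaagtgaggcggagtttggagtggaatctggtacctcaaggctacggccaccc
Cr2: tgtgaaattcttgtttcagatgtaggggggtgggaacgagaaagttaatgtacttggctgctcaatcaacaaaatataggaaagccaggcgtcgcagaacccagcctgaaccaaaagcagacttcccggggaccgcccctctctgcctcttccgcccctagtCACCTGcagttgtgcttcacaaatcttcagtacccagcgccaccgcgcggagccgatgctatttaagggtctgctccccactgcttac
The Vpreb3 window held 1 octamer, which began 45 bases before the start, and the Chchd10 window held 2, at 83 and 70 bases before it. The octamer was present in 1.60% of all 32851 RefSeq promoter windows. Counted by gene, with a match at any of its starts, it was in 1.49% of 9743 genes with at least 50 UMIs. It was in 3 of the 17 leading genes (Ccr6, Chchd10 and Vpreb3). The E-box was found in 17.2% of all windows and in 3 of the 17 genes, and GAGGAA in 23.3% of all windows and in 6 of the 17. A palindromic form of the EBF1 motif was in 0.779% of all windows, in 1.08% of the 9743 genes and in 1 of the 17, Chst3. No 2 of these motifs overlapped in the windows printed. All 4 printed windows held a motif, but the window of Ell3 had no match to any of them. A match of letters is a description and not a bound site. Chchd10 and Vpreb3 lie on the same strand of chromosome 10, and 1 annotated gene, Gm867, starts between them.

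The follicular list separated cluster 1 from clusters 4 and 12 but not from cluster 2. Of its 15 genes, all of which had at least 20 UMIs, 11 exceeded the mean of all other clusters by over 2-fold and none was below it by as much, where 2.78% and 29.1% of 14202 genes at that depth were higher and lower; the median log2 ratio was 1.91 against -0.48 for all genes. Against the mean of clusters 2, 4 and 12 none of the 15 passed 2-fold in either direction (0.782% of all genes higher, 11.8% lower) and the median was 0.24 against -0.21 for all genes. With cluster 2 left out of that mean the median was 0.97. Taken cluster by cluster, 11 of the 15 were over 2-fold higher than in cluster 4 and 7 than in cluster 12, while none was higher and 3 were lower than in cluster 2. The corresponding shares of all genes with at least 50 UMIs were 5.70% higher than in cluster 4, 1.19% higher than in cluster 12, and 6.66% higher and 18.1% lower than in cluster 2.

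Within that list, the receptors that guide cells to lymphoid tissue differed among themselves. Ccr7, the receptor for the T zone chemokines, was at 447 CPM in cluster 1, against 524, 144 and 206 CPM in clusters 2, 4 and 12. Cxcr5, the receptor for the follicle chemokine, had 72.5 CPM in cluster 1 against 221 CPM in cluster 2, 102 CPM in cluster 4 and 68.0 CPM in cluster 12. Klf2, which maintains recirculating lymphocytes, was at 1315 CPM in cluster 1 against 827, 1487 and 1024 CPM, and its target S1pr1, the egress receptor, at 201 CPM against 449, 156 and 142 CPM. Bach2, a repressor that holds back plasma cell differentiation, was at 123 CPM in cluster 1 and at 113, 29.2 and 57.9 CPM in clusters 2, 4 and 12. Of all 21 homing and egress receptors, 8 lay over 2-fold above and 6 over 2-fold below the mean of all other clusters, beside 2.78% and 29.1% of all genes with as many counts, so the number below was near the background. Against the mean of clusters 2, 4 and 12, beside 0.782% and 11.8% of all genes, only Ccr6 was higher and Ccr2, Ccr9, Ccr10, Itgb1 and Itgb7 were lower. Itgb1, the beta chain of the VLA integrins, was at 29.1 CPM in cluster 1 (24.2 to 34.7), the lowest of the 20 clusters, against 333, 174 and 163 CPM in clusters 2, 4 and 12.

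B-1 genes were low in cluster 1 against each of the other B cells clusters. Of 16, 14 were over 2-fold lower than the mean of clusters 2, 4 and 12 (11.8% of all genes with at least 20 UMIs were). The median log2 ratio was -2.51 against -0.21 for all genes, and the exceptions were Arid3a and Siglecg. Cluster by cluster, 15 were over 2-fold lower than in cluster 2, 13 than in cluster 4 and 14 than in cluster 12, and none was higher, where 18.1%, 4.32% and 8.60% of all genes with at least 50 UMIs were lower. S100a6, a calcium-binding protein high in B-1 and memory cells, was at 261 CPM in cluster 1 (246 to 277), against 3531, 3629 and 1773 CPM in clusters 2, 4 and 12. Ahnak, a large scaffold protein, was at 90.6 CPM against 1205, 718 and 429 CPM. The lowest ratio in the list was that of Ctla4, an inhibitory receptor with a known role in B-1a cells, at 4.46 CPM (2.69 to 6.97) against 131, 129 and 66.3 CPM. Bhlhe41, a transcription factor required for B-1a cells, was at 15.02 CPM in cluster 1 against 75.3, 117 and 39.7 CPM, and Zbtb32, which limits recall responses, at 4.93 CPM against 51.7, 81.0 and 24.2 CPM. Il5ra, the interleukin 5 receptor of B-1 cells, was at 14.3 CPM against 124, 68.1 and 34.3 CPM. Cd5, the classical surface marker of B-1a cells and also of T cells, was at 5.87 CPM in cluster 1 (3.80 to 8.66), 11.1 CPM in cluster 2, 4.73 CPM in cluster 4 and 43.8 CPM in cluster 12, the cluster with T lineage RNA. Against cluster 2 alone, the median log2 ratio was -0.23 for the follicular genes and -2.87 for the B-1 genes. It was -0.37 for all genes with at least 50 UMIs.

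**Figure D3:**
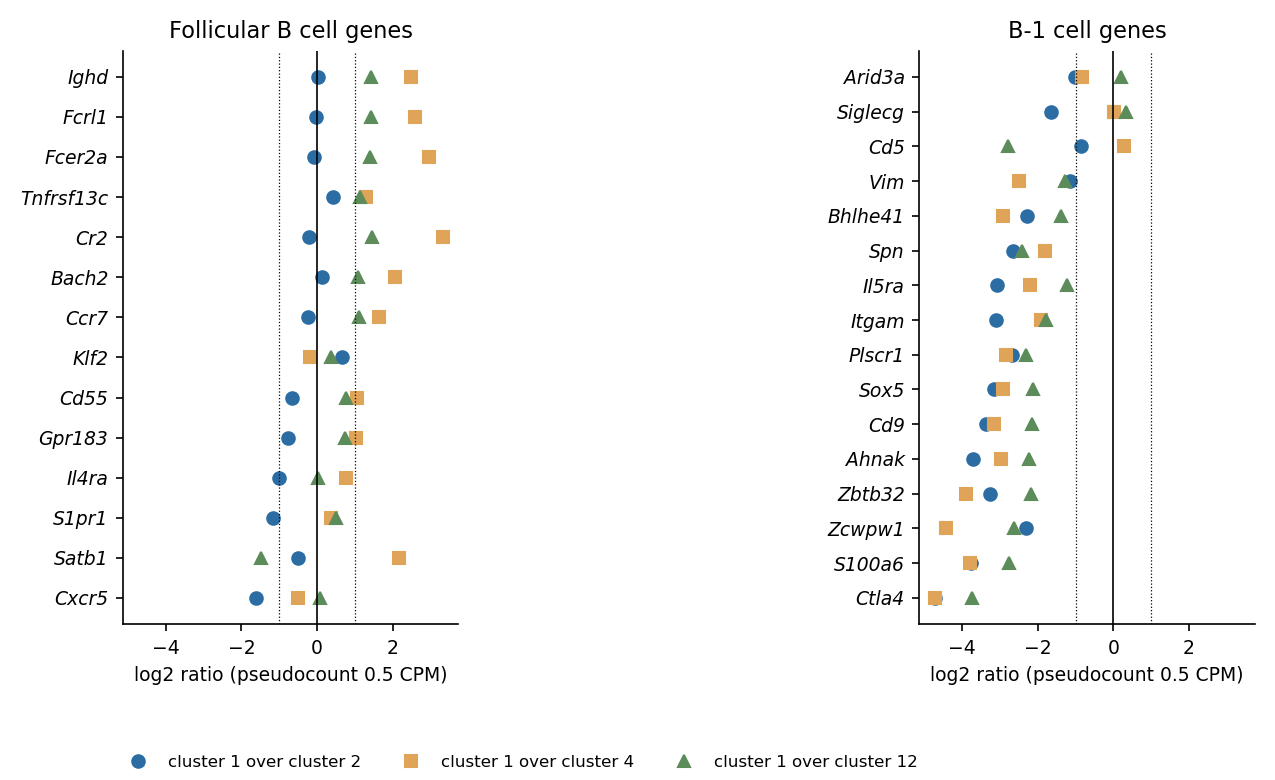
Log2 ratio of CPM (pseudocount 0.5) in cluster 1 over cluster 2 (blue circles), cluster 4 (orange squares) and cluster 12 (green triangles) for 14 of the follicular genes (left) and the 16 B-1 genes (right); dotted lines mark 2-fold. Of the B-1 genes 15, 13 and 14 lie left of the dotted lines for clusters 2, 4 and 12, while 3 follicular genes lie left of them for cluster 2 and most lie right of them for cluster 4.

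The immunoglobulin genes of cluster 1 were of the unswitched kind. Ighm, the IgM heavy chain, was at 2634 CPM in cluster 1, against 6633, 9453 and 2500 CPM in clusters 2, 4 and 12. There were 0.300 UMIs of Ighd for each UMI of Ighm in cluster 1, against 0.116, 0.0148 and 0.118 in clusters 2, 4 and 12. Among switched isotypes, Ighg1 had 5 UMIs, or 1.17 CPM (0.381 to 2.74), against 7.20, 511 and 16.5 CPM, and Igha had 30 UMIs, or 7.04 CPM (4.75 to 10.0), against 5.89, 1820 and 2.69 CPM. Ighg2b was at 5.40 CPM in cluster 1 against 23.6, 610 and 1.68 CPM. Of the 11 constant genes with enough counts, 8 were over 2-fold lower in cluster 1 than in the mean of clusters 2, 4 and 12 (11.8% of all genes were) and none higher, with a median log2 ratio of -1.23. Taken cluster by cluster, of 10 with enough counts none was over 2-fold higher and 4 were lower than in cluster 2. Against cluster 4, 1 was higher and 7 lower, and against cluster 12, 3 were higher and 1 lower. Of all genes with at least 50 UMIs, 6.66%, 5.70% and 1.19% were higher than in clusters 2, 4 and 12. The shares lower were 18.1%, 4.32% and 8.60%.

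The lambda share of cluster 1 was near that of cluster 12, and its variable segments were spread more evenly than those of cluster 4. Lambda constant genes took 22.2% of light chain constant UMIs in cluster 1 (21.9 to 22.6%), against 13.7% in cluster 2, 10.8% in cluster 4 and 23.5% in cluster 12. Iglc2 and Iglc3 are near-identical copies whose reads the counting may have split, so the lambda share uses their sum with Iglc1. The counts of constant genes past 2-fold given above took each lambda gene on its own. Heavy chain variable segments gave 265 UMIs over 68 segments in cluster 1, and the most counted, Ighv1-64, held 4.53% of them. In cluster 4 there were 595 UMIs over 56 segments, with 19.5% on Ighv4-1. The inverse Simpson index is the number of equally used segments that would give the same concentration. It was 42.6 in cluster 1 against 33.8, 12.2 and 27.8 in clusters 2, 4 and 12. The index can rise with the number of UMIs, which was 171 in cluster 2 and 109 in cluster 12. The part of that number in these differences was not tested. For kappa segments the index was 27.2 in cluster 1 and 27.2, 18.8 and 27.7 in clusters 2, 4 and 12. Since 3' reads rarely reach the variable segment, these UMIs are a small part of the immunoglobulin counts.

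The signalling parts of the antigen receptor were mostly below cluster 2 and above clusters 4 and 12. Of 26 genes of the receptor complex and its proximal signalling, 12 were over 2-fold above and 2 below the mean of all other clusters (2.78% and 29.1% of all genes were), the lower ones being Ifitm3 and Fyn. Against the mean of clusters 2, 4 and 12, beside 0.782% and 11.8% of all genes, only Rasgrp3 was higher and none lower. The median log2 ratio was -0.45 against cluster 2, with 20 of the 26 lower at any size, and 0.42 against cluster 4 and 0.40 against cluster 12. All genes with at least 50 UMIs had medians of -0.37, 0.20 and -0.21, so the list was near the background against cluster 2. Cd79b was at 1316 CPM in cluster 1 against 2399, 1183 and 937 CPM in clusters 2, 4 and 12, and Ms4a1, the CD20 antigen, at 1027 CPM against 2232, 902 and 821 CPM. The inhibitory receptors and phosphatases were mixed. Cd72, a lectin that dampens receptor signalling, was at 273 CPM in cluster 1 (258 to 290) against 248, 36.8 and 114 CPM, and the phosphatase gene Ptpn6 at 329 CPM against 132, 156 and 188 CPM; both exceeded the mean of the 3 clusters by over 2-fold. Siglecg, which restrains B-1 cells, was at 236 CPM in cluster 1 against 736, 233 and 187 CPM, and Fcrl5, a receptor of marginal zone and B-1 cells, at 10.8 CPM against 69.4, 32.1 and 16.2 CPM.

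Among 24 transcription factors of the B lineage, 11 were over 2-fold above the mean of all other clusters and 3 below, beside 2.78% and 29.1% of all genes. Pax5, which maintains B cell identity, was at 316 CPM in cluster 1 (300 to 333) against 289, 115 and 139 CPM in clusters 2, 4 and 12. Ebf1, its partner in B lineage commitment, was at 1419 CPM against 2483, 557 and 819 CPM. Irf8 was over 2-fold above the mean of clusters 2, 4 and 12, and Prdm1, Bhlhe41 and Cbfa2t3 were over 2-fold below it. Irf8 was at 315 CPM against 185, 112 and 143 CPM, while the mean of all 19 other clusters was 342 CPM. Prdm1, which drives plasma cell differentiation, was at 3.05 CPM in cluster 1 (1.62 to 5.22) against 33.4, 39.8 and 18.2 CPM. Jchain, which joins IgM and IgA into polymers, was at 10.8 CPM against 57.6, 2597 and 10.4 CPM. Irf4, counted among both the transcription factors and the plasma cell genes, went the other way. It was at 76.5 CPM in cluster 1, the highest of the 20 clusters, against 72.0, 47.0 and 47.5 CPM. In the list of 16 plasma cell genes, 8 were over 2-fold lower than in the mean of clusters 2, 4 and 12 (11.8% of all genes were) and none higher. Cluster by cluster, 7 of 14 were lower than in cluster 2, 10 of 16 than in cluster 4 and 2 of 14 than in cluster 12. Of all genes with at least 50 UMIs, 18.1%, 4.32% and 8.60% were lower than in these clusters. Against the mean of clusters 2, 4 and 12, 0.782% of all genes were higher and 11.8% lower. None of 14 marginal zone genes was higher than that mean and 3 were lower. Of 11 germinal centre genes Lmo2 and Rgs13 were higher and 4 lower, and of 11 memory genes Hhex was higher and 4 lower. Lmo2, a transcriptional cofactor, was at 182 CPM in cluster 1 (169 to 195) against 70.7, 35.3 and 64.0 CPM.

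The list of immature and transitional genes was split. Vpreb3 and Chchd10 were over 2-fold above the mean of clusters 2, 4 and 12, and 7 of the 14 with enough counts were lower (0.782% and 11.8% of all genes were). Several of the lower ones were high in cluster 12, the cluster with T lineage RNA: Dntt, the terminal transferase, was at 19.5 CPM in cluster 1 against 57.6, 13.0 and 369.6 CPM in clusters 2, 4 and 12, and Lef1 at 9.62 CPM against 10.5, 3.30 and 86.5 CPM. The part of cluster 12 in these ratios was not tested. The surrogate light chain genes Igll1 and Vpreb2 had no UMI in cluster 1, which allows up to 0.704 CPM, and Vpreb1 had 0.469 CPM. Rag1, a subunit of the recombinase, was at 21.4 CPM in cluster 1 against 64.8, 12.5 and 494 CPM, and Rag2 had no UMI against 1.96, 0.430 and 17.5 CPM. Cd93, a surface marker of transitional B cells, was at 10.3 CPM against 15.1, 2.58 and 5.72 CPM. Of 22 cell cycle genes, 21 were over 2-fold below the mean of the other clusters (29.1% of all genes were). Their summed level was 267 CPM in cluster 1 against 462, 202 and 607 CPM in clusters 2, 4 and 12, with up to 8911 CPM in another cluster, and against the mean of those 3 clusters 6 of 21 were lower. Mki67 was at 6.81 CPM in cluster 1, the lowest of the 20 clusters, against 13.8, 8.17 and 60.9 CPM in clusters 2, 4 and 12.

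**Figure D4:**
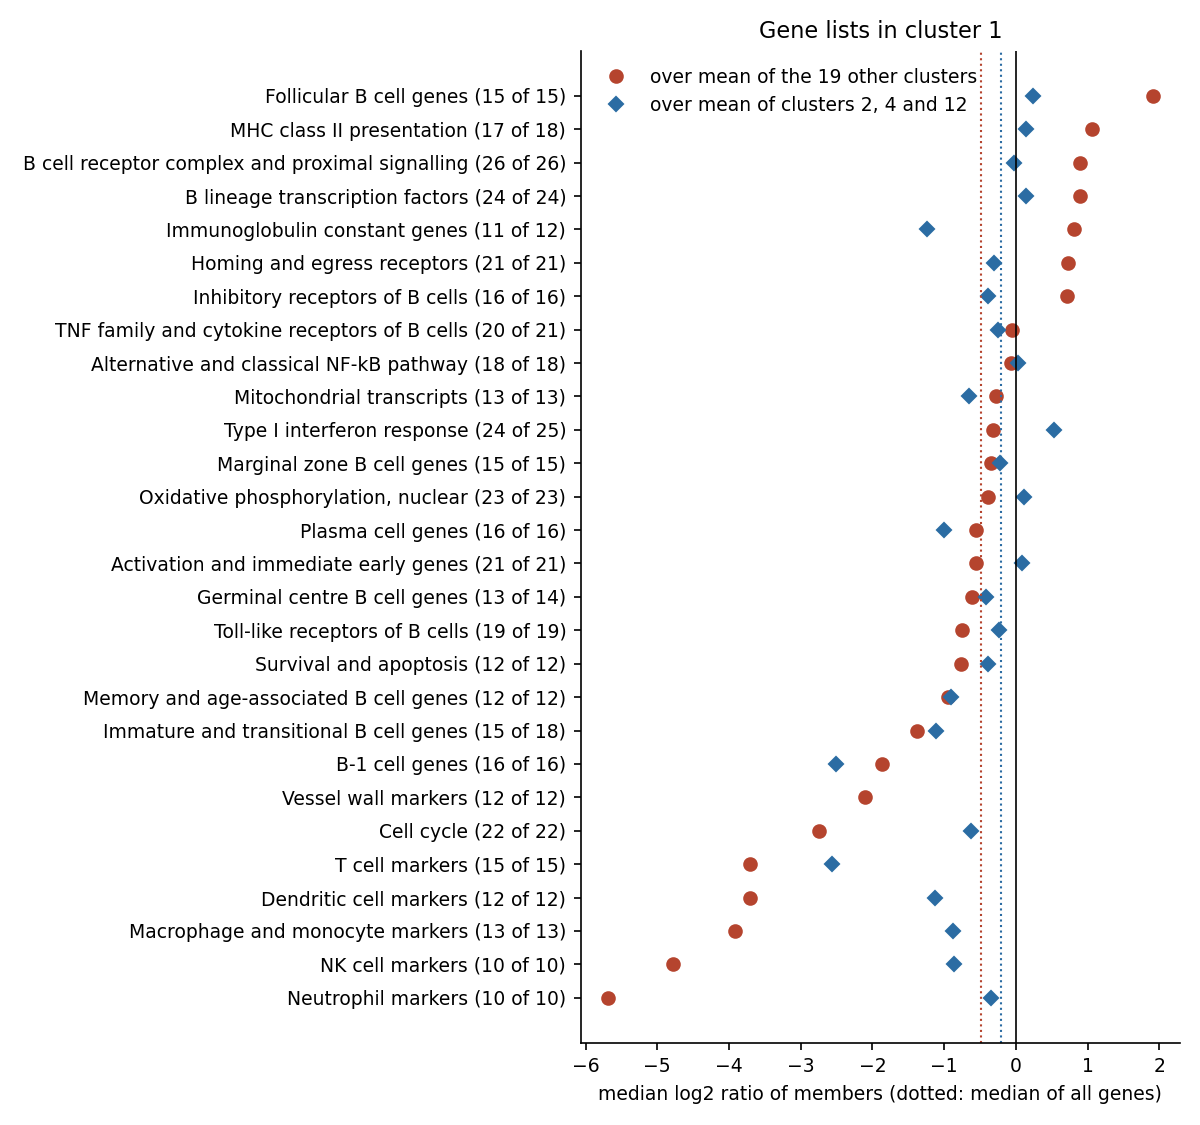
Median log2 ratio of CPM (pseudocount 0.5) in cluster 1 over the mean of the 19 other clusters (red circles) and over the mean of clusters 2, 4 and 12 (blue diamonds) for each gene list, with the number of genes that had enough counts for the first; diamonds with fewer than 5 such genes are left out, and dotted lines mark the medians of all genes, -0.48 and -0.21. The follicular list has the highest red median at 1.91, and the B-1 list has a blue median of -2.51.

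Genes for antigen presentation were high in cluster 1 against the mean of all other clusters, but cluster 1 was not the highest. The MHC class II list summed to 28283 CPM in cluster 1, against 1387 to 48672 CPM in the other clusters. Of 17 genes of MHC class II presentation in the table, 9 were over 2-fold above the mean of all other clusters and 1, Cd80, was below, beside 2.78% and 29.1% of all genes. Against the mean of clusters 2, 4 and 12 only H2-Eb2 was over 2-fold higher and only Cd80 lower (0.782% and 11.8% of all genes were). Cluster by cluster, 7 were higher than in cluster 4 and 5 than in cluster 12, while 2 were lower than in cluster 2 and none higher. Of all genes with at least 50 UMIs, 5.70% were higher than in cluster 4 and 1.19% than in cluster 12. Against cluster 2, 6.66% were higher and 18.1% lower, so the 2 lower genes were no more than the background. Cd74, the invariant chain, was at 15267 CPM in cluster 1 against 23427, 10212 and 10264 CPM in clusters 2, 4 and 12. H2-Eb2 was at 55.6 CPM in cluster 1 (48.8 to 63.2), against 54.4 CPM in cluster 2, 11.3 CPM in cluster 4 and 14.5 CPM in cluster 12. The costimulatory ligand gene Cd80 had 9 UMIs, or 2.11 CPM (0.966 to 4.01), against 34.7, 21.1 and 10.1 CPM, while its relative Cd86 was at 99.3 CPM against 237, 72.8 and 72.0 CPM. Among 19 TNF family and cytokine genes that could be compared with clusters 2, 4 and 12, none was over 2-fold higher and 7 were lower (0.782% and 11.8% of all genes were). Tnfsf8, the CD30 ligand, had 1 UMI in cluster 1 (0.235 CPM) against 34.1, 27.9 and 6.06 CPM, and Il10, an anti-inflammatory cytokine, had 3 UMIs (0.704 CPM) against 8.51, 17.6 and 3.70 CPM.

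Of 21 activation and immediate early genes, 1 was over 2-fold higher and 2 lower than the mean of clusters 2, 4 and 12, where 0.782% and 11.8% of all genes were, so the number lower was near the background. Dusp2, a phosphatase that limits MAP kinase signalling, was at 307 CPM in cluster 1 (290 to 324) against 143, 79.1 and 149 CPM, and Atf3, a stress-induced factor, at 70.2 CPM (62.5 to 78.6) against 258, 569 and 275 CPM. Of 24 interferon-stimulated genes in the table, 2 were over 2-fold above the mean of the 3 clusters and none below, with a median log2 ratio of 0.53 beside -0.21 for all genes. The higher ones were Usp18, at 11.3 CPM in cluster 1 against 7.20, 2.44 and 6.40 CPM, and Ifi44, at 5.16 CPM (3.24 to 7.82) against 1.31, 0.430 and 1.35 CPM. Against the mean of all other clusters the same list gave 1 higher and 7 lower, near the 2.78% and 29.1% of all genes. Its median log2 ratio there was -0.32, beside -0.48 for all genes. Of 19 Toll-like receptor genes, 2 were over 2-fold above and 6 below the mean of all other clusters, the number below being near the 29.1% of all genes. Cd180, a receptor that tunes B cell responses to endotoxin, was at 133 CPM in cluster 1 against 170, 53.2 and 51.5 CPM in clusters 2, 4 and 12. Of 12 genes of the BCL2 family, none was over 2-fold above and 6 were below the mean of all other clusters (2.78% and 29.1% of all genes were), and 3 were below the mean of clusters 2, 4 and 12. No NF-kB pathway gene and no nuclear respiratory chain gene passed 2-fold against clusters 2, 4 and 12.

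The genes with the highest ratio over the other B cells clusters, after Mcpt2, included Rflnb at 25.8 CPM in cluster 1 (21.2 to 31.1) against 7.20, 2.29 and 7.74 CPM in clusters 2, 4 and 12, and Pxdc1 at 92.7 CPM against 22.9, 14.3 and 31.0 CPM. Cd200, an inhibitory ligand, was at 72.8 CPM in cluster 1 (64.9 to 81.3) against 34.1, 18.9 and 19.9 CPM. On the log2(CPM + 0.5) scale Ighg1, Igha and Jchain, all high in cluster 4, had log2 ratios of -6.74, -6.34 and -6.30. Ranked instead by the CPM ratio with no pseudocount, which puts every gene without a count in cluster 1 last, 14 of the lowest 15 genes had no UMI in cluster 1, and the other was Ighg1. Krt8, an epithelial keratin, had no UMI in cluster 1, which allows up to 0.704 CPM, and was at 5.24, 39.1 and 12.5 CPM in clusters 2, 4 and 12; cluster 4 was thus at least 55.6-fold higher against the limit of 3 counts. Tnfrsf17, the plasma cell survival receptor BCMA, also had no UMI in cluster 1 and was at 9.74 CPM in cluster 4.

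**Figure D5:**
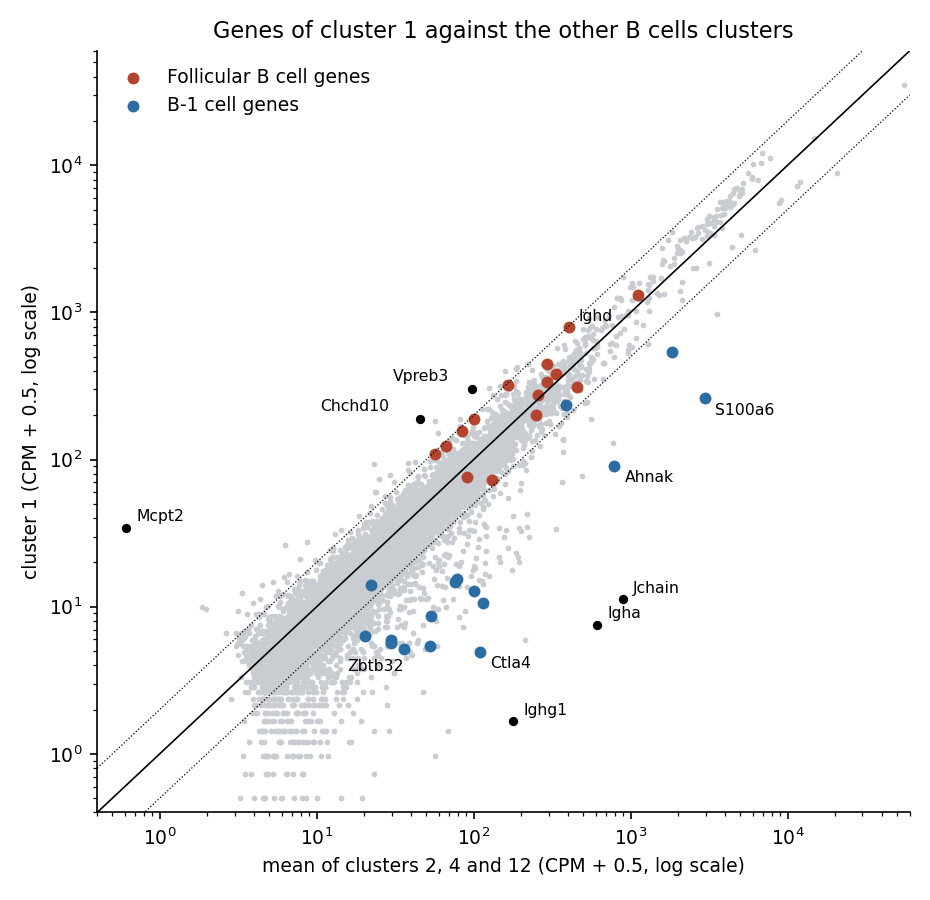
CPM + 0.5 of each gene in cluster 1 against the mean of clusters 2, 4 and 12, both axes on a log scale, for the 9503 genes with at least 50 UMIs over these clusters; red points are follicular genes, blue points B-1 genes and black points other named genes, the solid line marks equality and the dotted lines 2-fold. Follicular genes lie between the dotted lines, most B-1 genes lie below them, and Mcpt2 lies far above.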

How the data were processed

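The files held cells and summed counts from leukocytes of the aorta, with 1 nt-LNA and 1 saline library. Per the submitters' processing notes the reads were processed with Cell Ranger 2.1.1 and Seurat, and the build named is mm9. The deposited counts are UMIs per gene summed by the authors over the cells of each cluster, both libraries together, and cover 31053 genes and 70206506 UMIs. The deposited cell table gives each cell's barcode with its library, its cluster and the authors' name for the cluster. Cells with a UMI in a gene, doublets and expression per library could not be assessed from summed counts, and no doublet step is given in the sources used here.

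Counts were divided by the cluster's total and multiplied to CPM (Python 3.11.15, pandas 2.3.3). Log2 ratios used a pseudocount of 0.5 CPM, genes needed 50 UMIs over the clusters compared and members of gene lists 20, and a gene was called past 2-fold. A mean of clusters weights each cluster equally. Shares have Clopper-Pearson intervals, ratios exact conditional ones and CPM exact Poisson ones, all at 95% and covering counting error only, and a count of 0 allows 3 counts (scipy 1.17.1). Other scalings were the trimmed mean of M values (edgeR 4.0.16 in R 4.3.3) and median-of-ratios size factors. No count model was fitted, because each treatment has 1 library. The ratio and intervals were tested on simulated data.

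The members and the 28 gene lists were chosen with earlier results of these data known. Genes were named by rule: the 5 markers, the 20 and 15 with the highest ratios over all others and over the 3 B cells clusters (at least 50 UMIs in cluster 1), the 15 with the lowest, and list members. Of the lists, Marchf1 and Mx2 were not matched by these symbols. One member of the follicular list is counted in it but is not reported here. Promoter windows come from RefSeq (GRCm38.p6), a build other than that of the files, and were joined by gene symbol.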

Additional observations from a re-analysis of the deposited data

How the results depend on the processing

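With 1 library per treatment and 1 summed count per cluster, leaving out a replicate was not possible. No paired analysis was possible because each treatment has 1 library and no result comes from a test. The ratio of shares of cluster 1, nt-LNA over saline, was 0.600 of all cells. It moved to 0.516 of the cells deposited as B cells and to 0.703 without clusters 2, 5, 14 and 16. It stayed within its interval in the other 3 alternatives, including that without shared barcodes. Shared barcodes were left out as an alternative chosen after seeing the data.

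Counts of genes past 2-fold depended on scaling, reference and filter. Against all others, 334 genes were higher; the number was 552 with the trimmed mean of M values, 542 without mitochondrial and ribosomal protein genes in the total, 639 with the median of the other clusters and 214 with a pseudocount of 5 CPM. The 3799 lower genes became 2113 with the median and 1776 with that pseudocount. Against clusters 2, 4 and 12, 58 genes were higher; the number was 103 with median-of-ratios factors, 103 with the trimmed mean of M values, 112 without mitochondrial and ribosomal protein genes, 119 with the median, 137 with summed counts, 166 with at least 1 count, 31 with at least 200, 33 with a pseudocount of 5 CPM and 183 without cluster 2. The 869 lower genes became 1864 with at least 1 count, 388 with at least 200 and 433 with that pseudocount. Scaling shifted the median of all genes against all others to -0.25 (median-of-ratios), -0.17 (trimmed mean) and -0.22 (without mitochondrial and ribosomal protein genes).

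The follicular median against all others was 2.69 with the median of the clusters, and against the B cells clusters 0.97 without cluster 2; the B-1 median against all others was -0.93 with the median of the clusters. With that median as reference, 6 named genes turned from lower to higher than all others on the log2 scale, namely Ifi44 (0.40), Igha (2.02), Ighg1 (0.81), Ighg2b (1.14), Jchain (0.047) and Zbtb32 (0.074), and Igha did so against the B cells clusters (0.24). The cause of these changes was not tested. Genes with few UMIs in cluster 1 are limited by depth, and 0 UMIs allows up to 0.704 CPM.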

Other observations

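Mcpt2, a mast cell protease gene, had 145 UMIs in cluster 1 (34.0 CPM, exact Poisson 95% interval 28.7 to 40.0) and 17 UMIs in all other clusters together, with none in clusters 2 and 4 and 1 in cluster 12. The highest level elsewhere was 1.16 CPM, in cluster 0. Tpsb2, another mast cell gene, had no UMI in cluster 1 and was at 38.4 CPM in cluster 12. The summed table does not show how many of the 719 cells carried Mcpt2, or from which library.

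The 23 nuclear respiratory chain genes summed to 6792 CPM in cluster 1, against 4083, 6797 and 7327 CPM in clusters 2, 4 and 12. The 13 mitochondrial transcripts summed to 37851 CPM in cluster 1, against 101034, 35274 and 41549 CPM. Cluster 2 was thus the lowest of the 4 for the nuclear genes and the highest for the mitochondrial ones, and no gene of either list passed 2-fold against the mean of clusters 2, 4 and 12.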
